A study of Mus musculus with 6 samples.

Results

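Epithelial cells hold each other through E-cadherin and related junction proteins, and mesenchymal cells lie apart in a matrix rich in fibronectin with vimentin filaments inside them. Transcription factors of the Snail and ZEB families bind E-box sequences and repress epithelial genes, while Grainyhead factors and the splicing regulator Esrp1 maintain the epithelial state. In the mouse embryo the epiblast passes through such a switch at gastrulation, and primordial germ cells, which arise beside the primitive streak, carry E-cadherin and EpCAM on their surface. The 10 genes followed here are 4 epithelial ones (Cdh1, Epcam, Esrp1, Grhl2) and 6 mesenchymal ones (Snai1, Snai2, Zeb1, Zeb2, Vim, Fn1), taken as a named set and matched by Ensembl ID among the 37991 IDs of a table of RNA-seq read counts.

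The samples were mouse primordial germ cell-like cells (PGCLCs), grown from C57BL/6 embryonic stem cells by way of epiblast-like cells and taken on day 4 of aggregate culture with BMP2 and the factors SCF, LIF and EGF. In the first group, the 3 Ezh2 KO libraries carry the label Ezh2-/-, CreERT2 and came from aggregates whose medium held 4-hydroxytamoxifen in ethanol at the start. The 3 Ctrl libraries carry the label Ezh2f/f, CreERT2 and came from aggregates that received ethanol only. Both groups thus share the floxed line and its tamoxifen-inducible Cre. Exposure to 4-hydroxytamoxifen, active Cre and loss of Ezh2 came together in the Ezh2 KO group, so their effects cannot be told apart. The sources used here do not say whether the line is 1 clone, how the sort was gated or whether replicates were separate inductions, so the p-values measure only spread between these 6 samples, which may be technical. Ezh2 is the chief methyltransferase of polycomb repressive complex 2, which deposits H3K27me3, and the design sets cells that lose it during germ cell induction against cells that keep it.

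Total counts ran from 27072150 to 49382146 per library. Ezh2 itself stood at 40.8, 67.1 and 70.0 CPM (reads scaled to library size, with TMM factors) in Ezh2 KO replicates 1 to 3. It stood at 91.8, 78.1 and 95.3 CPM in Ctrl replicates 1 to 3. The groups did not overlap, but the count is per gene and includes exons that the deletion spares. The source of the remaining reads was not tested. In the edgeR test used below, Ezh2 had a log2 fold change of -0.58 ± 0.23 (SE) and was not called (unadjusted p = 0.0361, edgeR adjusted p = 0.976). Of 8 germ cell markers, 8 were detected and tested, with a summed level of 590.3 to 729.3 CPM in Ezh2 KO and 679.6 to 952.1 CPM in Ctrl. Fibroblast markers summed to 3.36 to 7.43 CPM in Ezh2 KO and 6.37 to 10.6 CPM in Ctrl, and endoderm markers to 2.86 to 4.55 CPM in Ezh2 KO and 3.87 to 5.88 CPM in Ctrl. Without Sox7, the most abundant endoderm marker, the endoderm sums did not overlap. They were then 0.965 to 1.63 CPM in Ezh2 KO and 1.88 to 3.67 CPM in Ctrl. All 4 tested endoderm markers had a negative log2 fold change. Libraries of the same group lay far apart on principal component 1, with scores of -35.5, 78 and 13.3 in Ezh2 KO and -61.4, -1.2 and 6.78 in Ctrl. That component held 55.5% of the variance, and its loadings went with transcript GC content (Spearman rho of -0.516 across genes, which are not independent). In bulk RNA, fewer cells of a type and less RNA per cell cannot be told apart.

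Of the 10 genes, 8 were tested between Ezh2 KO and Ctrl, and Zeb1 and Zeb2 were not. None of the 8 passed the quasi-likelihood test of edgeR across all genes (adjusted p of 0.976 to 0.988). That fit called 0 genes among the 16420 tested (0%), with 459 at an unadjusted p under 0.05 (2.80%), against 5 genes called by DESeq2 (0.0201%), 50 by DESeq2 with the replicate number as a block (0.285%) and 0 by limma-voom, which had 466 at an unadjusted p under 0.05. A median gene had a 95% interval of 0.71 on either side of its log2 fold change, and 0.43 for the 5247 more abundant genes (log2 CPM above 5 on average), where Cdh1, Epcam, Esrp1 and Fn1 lie. Of the 8 tested members, 1, Grhl2, had an unadjusted p under 0.05, where 1.55% of tested genes were higher at that p, and 3 (Grhl2, Snai2 and Vim) had every Ezh2 KO library above every Ctrl library, where 8.09% of all tested genes had groups that do not overlap, 4.07% higher and 4.03% lower. The 8 members had a median log2 fold change of -0.08, against 0.01 over all tested genes.

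Promoter windows from RefSeq (GRCm38.p6, 250 bases before to 50 after the start site) were matched by symbol for 4 of the 10 genes. Those of 3 genes are shown, without Zeb2. The windows are chr17:87635729-87636028 for Epcam, chr2:167537945-167538244 for Snai1 and chr2:13574061-13574360 for Vim, each on the plus strand and printed 5′ to 3′. Capitals mark the E-box CACCTG, read on both strands as CACCTG or CAGGTG, and the Grainyhead core ACCGGT, which is its own reverse complement; the motifs do not overlap each other.
Epcam: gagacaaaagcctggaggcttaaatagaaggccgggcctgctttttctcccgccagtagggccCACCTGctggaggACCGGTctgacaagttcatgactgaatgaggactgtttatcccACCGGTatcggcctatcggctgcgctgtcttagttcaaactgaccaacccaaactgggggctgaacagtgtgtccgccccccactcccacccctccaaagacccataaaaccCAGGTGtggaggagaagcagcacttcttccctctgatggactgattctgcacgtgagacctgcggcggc
Snai1: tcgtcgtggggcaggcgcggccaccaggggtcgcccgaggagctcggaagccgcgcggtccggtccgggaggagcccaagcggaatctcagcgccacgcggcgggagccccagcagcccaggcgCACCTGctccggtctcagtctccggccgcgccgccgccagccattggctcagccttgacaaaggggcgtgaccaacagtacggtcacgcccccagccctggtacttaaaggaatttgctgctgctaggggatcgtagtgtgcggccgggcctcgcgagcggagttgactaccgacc
Vim: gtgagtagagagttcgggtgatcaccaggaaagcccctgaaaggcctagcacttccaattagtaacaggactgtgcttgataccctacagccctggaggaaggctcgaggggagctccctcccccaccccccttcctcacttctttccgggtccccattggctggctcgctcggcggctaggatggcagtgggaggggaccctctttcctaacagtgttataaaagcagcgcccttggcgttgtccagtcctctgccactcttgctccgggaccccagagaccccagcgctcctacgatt
The Epcam window holds 2 E-boxes, starting at positions -187 and -19, and 2 Grainyhead cores, at -174 and -131 from the start site. Of 32851 windows in the table, 20.2% hold an E-box and 2.88% hold 2 or more, while 2.33% hold a Grainyhead core and 0.0548% hold 2 or more. The Snai1 window holds 1 E-box, at -126, and the Snail protein is known in human cells to repress its own gene through an E-box. The Vim window holds neither motif, and neither do the Zeb2 windows, which are not printed. These matches are a description of the letters and not of binding.

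Among the epithelial genes, the surface proteins were abundant in every library. Cdh1, on chromosome 8, encodes E-cadherin, the calcium-dependent adhesion molecule of adherens junctions. It stood at 249.5, 109.4 and 129.5 CPM in Ezh2 KO replicates 1 to 3, against 215.9, 193.9 and 125.1 CPM in Ctrl replicates 1 to 3. The highest and the lowest library were both Ezh2 KO, and the groups overlapped widely. The log2 fold change was -0.13 ± 0.33 (SE; 95% interval -0.90 to 0.63), with an edgeR adjusted p of 0.981. Its sign turned when 1 library was left out: to 0.03 without Ctrl replicate 1, 0.09 without Ezh2 KO replicate 2 and 0.01 without Ezh2 KO replicate 3. It was -0.58 without Ezh2 KO replicate 1, -0.36 without Ctrl replicate 3 and -0.07 without Ctrl replicate 2.

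Epcam, on chromosome 17, encodes a homophilic adhesion protein of epithelia and of germ and stem cells. It was at 190.6, 243.7 and 176.2 CPM in Ezh2 KO, against 206.3, 219.9 and 197.7 CPM in Ctrl. Its libraries lay closest together among the 8 tested genes, with an SD of 0.16 in log2 CPM over all 6, and the Ctrl values fell inside the range of the Ezh2 KO values. The log2 fold change of -0.03 ± 0.16 (95% interval -0.39 to 0.33, edgeR adjusted p = 0.988) corresponds to a level between 0.76 and 1.26 times that of Ctrl. It was 0.01 without Ctrl replicate 2, 0.01 without Ezh2 KO replicate 1, 0.06 without Ezh2 KO replicate 3, -0.17 without Ezh2 KO replicate 2 and -0.10 without Ctrl replicate 3.

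The epithelial regulators were less abundant than Cdh1 and Epcam, and neither passed the test. Esrp1, on chromosome 4, encodes an RNA-binding protein that keeps epithelial splice forms, of which gene-level counts show nothing. Esrp1 was at 41.3, 32.2 and 37.6 CPM in Ezh2 KO, against 39.1, 44.1 and 44.5 CPM in Ctrl, with overlapping groups and a log2 fold change of -0.20 ± 0.18 (edgeR adjusted p = 0.976). Grhl2, on chromosome 15, encodes a Grainyhead factor that activates Cdh1 and other junction genes. Grhl2 was at 12.1, 8.76 and 7.98 CPM in Ezh2 KO, against 4.31, 6.99 and 5.70 CPM in Ctrl. Each Ezh2 KO library stood above each Ctrl library, and the same-numbered libraries differed unevenly, Ezh2 KO being at 282%, 125% and 140% of Ctrl in numbers 1 to 3. The log2 fold change was 0.77 ± 0.29 (95% interval 0.10 to 1.44), with an unadjusted p of 0.0298 that did not pass over all genes (edgeR adjusted p = 0.976). The unadjusted p of Grhl2 was 0.104 without Ezh2 KO replicate 1, 0.0960 without Ctrl replicate 1 and 0.0882 without Ctrl replicate 3. Surface ectoderm markers (3 of 9 tested, Ivl at 0) also summed higher in Ezh2 KO, at 11.1 to 15.1 CPM against 5.67 to 8.24 CPM in Ctrl, but Krtdap, a keratinocyte gene, made that gap, at 6.23, 9.38 and 6.47 CPM in Ezh2 KO against 1.55, 3.12 and 2.23 CPM in Ctrl. Krtdap did not pass in edgeR and did in DESeq2 (adjusted p = 0.0127). Without Krtdap the sums overlapped, at 4.84 to 5.80 CPM in Ezh2 KO and 4.12 to 6.01 CPM in Ctrl, and the part of such cells in the Grhl2 values was not tested.

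**Figure D1:**
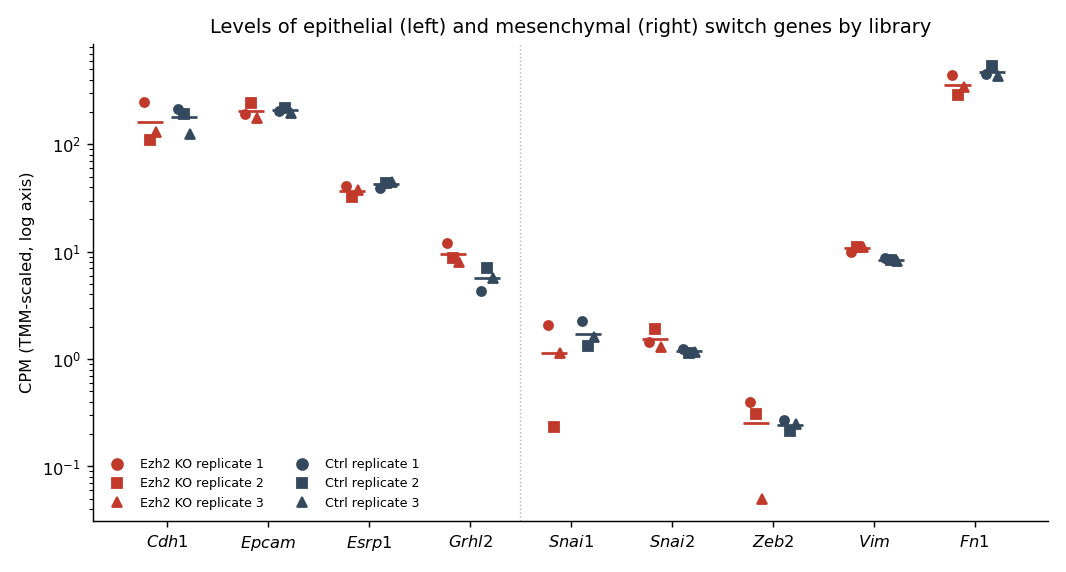
CPM after TMM scaling (log axis) of 9 switch genes in each library, with Ezh2 KO in red to the left of Ctrl in blue and a bar at the mean of 3 libraries; Zeb1, listed at 0 throughout, is left out. Epcam, Cdh1 and Fn1 sit above 100 CPM in all 6 libraries, and Snai1 in Ezh2 KO replicate 2 stands at 0.232 CPM.

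Of the mesenchymal transcription factors, the Snail paralogs were near 1 CPM, Zeb2 was near 0, and Zeb1 was listed at 0, which is not read as a level. Snai1, on chromosome 2, encodes Snail, a zinc finger repressor of Cdh1. It was at 2.06, 0.232 and 1.14 CPM in Ezh2 KO, against 2.29, 1.31 and 1.59 CPM in Ctrl, from 77, 6 and 46 reads in Ezh2 KO and 111, 37 and 45 reads in Ctrl. Ezh2 KO replicate 2 stood far below the others, and the groups overlapped because Ezh2 KO replicate 1 was second highest. The log2 fold change was -0.58 ± 0.64 (95% interval -2.05 to 0.88, edgeR adjusted p = 0.976), and it was -0.12 without Ezh2 KO replicate 2, -1.29 without Ezh2 KO replicate 1 and -0.33 without Ctrl replicate 1.

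The low Snai1 value came in the library where GC-rich transcripts were lowest. Transcripts in the top quintile by GC content (over 55.1%) had a median log2 deviation from the 6-library mean of 0.23, -0.51 and -0.02 in Ezh2 KO replicates 1 to 3, against 0.38, 0.06 and -0.11 in Ctrl replicates 1 to 3. Snai1 has a transcript GC content of 59.8%, above that of 95.6% of tested genes, and Cdh1 has 50.7%. With a per-library GC offset, the log2 fold change was -0.47 ± 0.47 for Snai1 and -0.13 ± 0.30 for Cdh1. Snai1 had the widest spread of the tested members, an SD of 1.10 in log2 CPM over 6 libraries, more than 98.2% of all tested genes. Ezh2 KO replicate 2 also had the highest share of reads from mitochondrial genes, 3.14%, against 1.6% to 2.75% in the other libraries. The cause of its low Snai1 value was not tested.

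**Figure D2:**
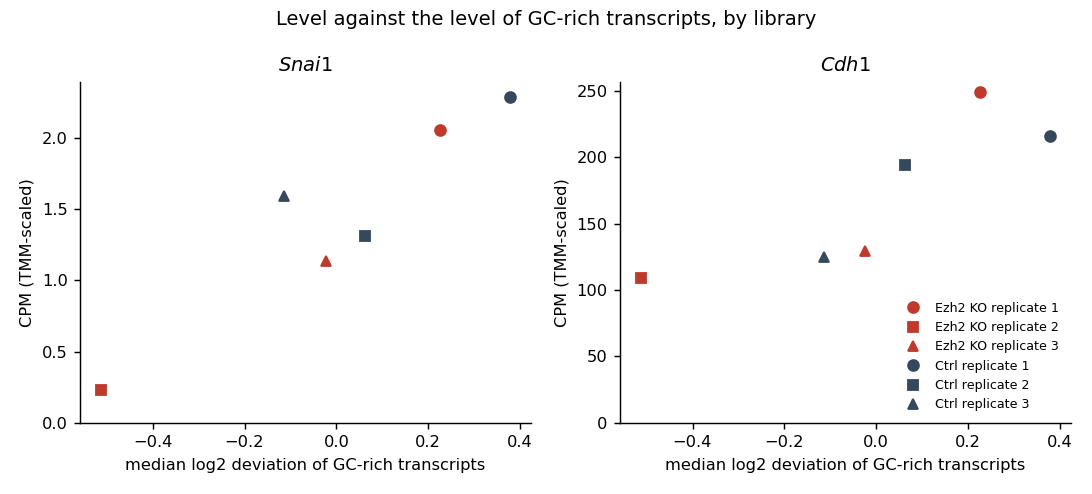
CPM of Snai1 (left) and Cdh1 (right) in each library against the median log2 deviation of transcripts in the top quintile by GC content; Ezh2 KO libraries are red and Ctrl libraries blue, with 1 symbol for each replicate number. Ezh2 KO replicate 2, at a deviation of -0.51, is lowest in both genes, with 0.232 CPM of Snai1 and 109.4 CPM of Cdh1.

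Snai2, on chromosome 16, encodes Slug, the paralog of Snail and likewise a zinc finger repressor. It was at 1.44, 1.89 and 1.28 CPM in Ezh2 KO, against 1.24, 1.14 and 1.17 CPM in Ctrl. Every Ezh2 KO library was above every Ctrl library, by small steps of few reads, with 49 to 54 reads in Ezh2 KO and 32 to 60 in Ctrl. Its log2 fold change of 0.38 ± 0.32 (95% interval -0.36 to 1.12) had an edgeR adjusted p of 0.976. Zeb2, on chromosome 2, encodes a zinc finger homeobox repressor and was below the filter on low counts. It had 15, 8 and 2 reads in Ezh2 KO, against 13, 6 and 7 reads in Ctrl, and at that depth no difference was detectable: DESeq2, which kept Zeb2, gave a log2 fold change of 0.02 ± 0.85 (SE, adjusted p = 1). An antisense gene, Zeb2os, shares 3.27% of the Zeb2 exon bases, and without a stated strand setting the reads of such partners cannot be told apart. The same holds for 1.93% to 2.50% of the exon bases of Esrp1, Grhl2, Zeb1 and Fn1.

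Zeb1, which encodes the other ZEB repressor, was listed at 0 in all 6 libraries. Such a value need not mean that no transcript was there: 2479 of 20230 protein-coding genes were listed at 0 throughout, among them Pdcd2 and Sco2, which most cell types use (both singled out after their values were seen). No level or fold change of Zeb1 is therefore given.

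The mesenchymal structural genes stood far apart in level. Vim, on chromosome 2, encodes the intermediate filament vimentin. It was at 10.0, 11.2 and 11.1 CPM in Ezh2 KO, against 8.72, 8.44 and 8.21 CPM in Ctrl. Each Ezh2 KO library was above each Ctrl library, with a mean of 10.8 ± 0.650 CPM in Ezh2 KO and 8.46 ± 0.257 CPM in Ctrl (SD, n = 3 each). For Vim the log2 fold change was 0.35 ± 0.21 (95% interval -0.15 to 0.84) and did not pass (unadjusted p = 0.145, edgeR adjusted p = 0.976). Its value ran from 0.29 to 0.39 over 16 alternatives, in all of which it stayed positive and none of which called it.

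Fn1, on chromosome 1, encodes fibronectin, the matrix ligand of several integrins and the coating on which the epiblast-like cells were plated as protein. It was at 442.9, 286.3 and 341.7 CPM in Ezh2 KO, against 452.9, 541.7 and 430.9 CPM in Ctrl. Ezh2 KO replicates 2 and 3 were below all Ctrl libraries and Ezh2 KO replicate 1 was within their range, at 97.8% of the Ctrl library of its number against 52.8% and 79.3% in numbers 2 and 3. For Fn1 the log2 fold change was -0.41 ± 0.19 (95% interval -0.84 to 0.02, unadjusted p = 0.0569, edgeR adjusted p = 0.976). Without Ezh2 KO replicate 2 it was -0.27, and without Ezh2 KO replicate 1 it was -0.60. With the replicate number as a block, Fn1 joined Grhl2 under an unadjusted p of 0.05 (0.0494 and 0.0227), where 9.10% of all tested genes were, and neither passed after adjustment by edgeR (0.546 and 0.490, within ranges of 0.543 to 1.0 and 0.380 to 1.0 over the alternatives). Vim and Fn1, a pair of textbook mesenchymal markers, thus had log2 fold changes of opposite sign.

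**Figure D3:**
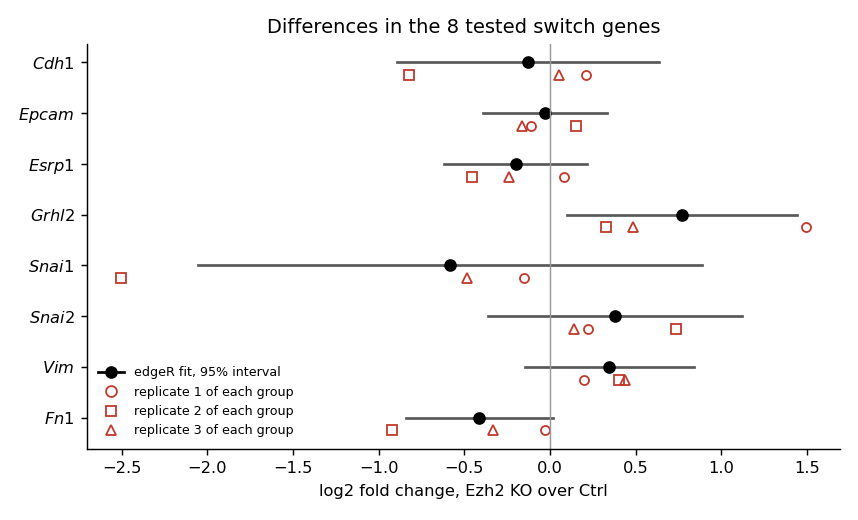
Log2 fold change, Ezh2 KO over Ctrl, of the 8 tested switch genes: black points and lines are the edgeR estimate with its 95% interval, and open red symbols are the log2 ratios of CPM of same-numbered libraries. The Grhl2 interval, 0.10 to 1.44, is the one that lies wholly on 1 side of 0, and Snai1 has the widest, -2.05 to 0.88.

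Set on a common scale of CPM per kilobase of exon (lengths from GENCODE M21, so a level and not a difference), the genes fell in steps. Epcam came first at 80.3 to 111 CPM per kilobase over the 6 libraries, clear of Cdh1 at 23.9 to 54.6 and Fn1 at 24.5 to 46.4, whose ranges overlap each other. Esrp1 followed at 5.10 to 7.06 and Vim at 1.73 to 2.35, each clear of its neighbours. Grhl2 (0.5003 to 1.41), Snai1 (0.143 to 1.41) and Snai2 (0.562 to 0.936) overlapped, and Zeb2 was last of the detected genes at 0.00248 to 0.0201. Among all tested genes with a length, Epcam stood above 95%, Cdh1 above 87.9%, Fn1 above 87.4% and Vim above 39.1%. Esrp1 stood above 61.2%, Grhl2 above 26.1%, Snai1 above 26% and Snai2 above 22.1%.

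Ratios within a library do not depend on how libraries are scaled to each other. The log2 ratio of Epcam to Vim reads was 4.25, 4.45 and 3.99 in Ezh2 KO, against 4.56, 4.70 and 4.59 in Ctrl, so that the groups did not overlap and the means differed by -0.39. For Cdh1 to Vim it was 4.64, 3.29 and 3.55 in Ezh2 KO, against 4.63, 4.52 and 3.93 in Ctrl, with overlap. The ratios to Fn1 had the other sign. Epcam to Fn1 was -1.22, -0.23 and -0.96 in Ezh2 KO, against -1.13, -1.30 and -1.12 in Ctrl, and Cdh1 to Fn1 was -0.83, -1.39 and -1.40 in Ezh2 KO, against -1.07, -1.48 and -1.78 in Ctrl. The direction of an epithelial over mesenchymal ratio therefore turned on which mesenchymal gene was the divisor, and these 4 ratios have no test. The log2 ratio of Snai1 to its target Cdh1 was -6.92, -8.88 and -6.83 in Ezh2 KO, against -6.56, -7.21 and -6.30 in Ctrl.

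**Figure D4:**
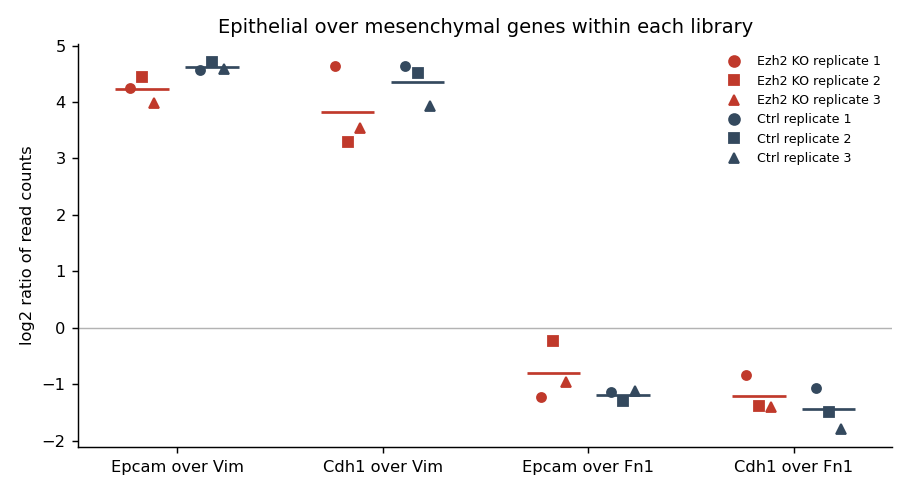
Log2 ratio of read counts of an epithelial over a mesenchymal gene within each library, not corrected for gene length; Ezh2 KO in red to the left of Ctrl in blue, with a bar at each mean. Epcam over Vim is lower in every Ezh2 KO library (3.99 to 4.45) than in every Ctrl library (4.56 to 4.70), and the other ratios overlap.

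The genes nearest in profile to Cdh1 and Snai1 over the 6 libraries were looked up among all genes. Of 11886 tested genes whose mean log2 CPM was 1 or more, those closest to Cdh1 by root mean square distance of centred log2 CPM were Trp53inp2 (0.0574), Dusp27 (0.0759) and D2hgdh (0.0775). Trp53inp2, for example, was at 14.4, 6.33 and 7.49 CPM in Ezh2 KO, against 11.2, 10.7 and 7.15 CPM in Ctrl. For Snai1, the tested member of widest spread, they were Pigt (0.184), Relt (0.210) and Arl10 (0.213), each lowest in Ezh2 KO replicate 2, with Pigt at 92.7, 9.77 and 53.3 CPM in Ezh2 KO and 91.3, 62.2 and 54.8 CPM in Ctrl. All 6 genes were chosen for their likeness, so what they share with Cdh1 or Snai1 is a description only.

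Around these 10 genes, other epithelial genes were plentiful. All 38 genes of the junction and keratin list were tested, and 0 were called by edgeR; 2 had an unadjusted p under 0.05 (1 higher, 1 lower), 16 had a positive and 22 a negative log2 fold change, and the median was -0.07. The most abundant were Cldn4, a tight junction claudin, at 523, 392.4 and 442.6 CPM in Ezh2 KO against 528.5, 538.8 and 572 CPM in Ctrl, and Jup, which encodes plakoglobin, at 165.6 ± 79.8 CPM in Ezh2 KO and 190.1 ± 80.6 CPM in Ctrl (SD, n = 3 each). The claudins differed in sign: Cldn6 was at 102.1, 112.4 and 64.4 CPM in Ezh2 KO against 51.2, 58.7 and 56.0 CPM in Ctrl (log2 fold change 0.75 ± 0.22, unadjusted p = 0.00994). Cldn3 was at 30.1, 21.6 and 21.9 CPM in Ezh2 KO against 37.3, 38.6 and 31.0 CPM in Ctrl (-0.54 ± 0.22, unadjusted p = 0.0359). Both had an edgeR adjusted p of 0.976, and both were singled out after their values were seen.

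The epithelial regulators other than Esrp1 and Grhl2 had 7 of 9 genes tested, with 0 called, 0 at an unadjusted p under 0.05 and a median log2 fold change of 0.21. Elf3, an epithelial ETS factor, averaged 104.9 ± 45.1 CPM in Ezh2 KO and 164.6 ± 49.3 CPM in Ctrl, and Klf5 averaged 76.6 ± 33.7 CPM in Ezh2 KO and 122.9 ± 92.6 CPM in Ctrl (SD, n = 3 each). The other Grainyhead genes did not stand apart as Grhl2 did: Grhl3 was at 53.1, 47.7 and 48.2 CPM in Ezh2 KO against 22.5, 53.8 and 49.4 CPM in Ctrl, and Grhl1 at 19.8, 22.5 and 24.1 CPM in Ezh2 KO against 11.9, 22.1 and 21.9 CPM in Ctrl. Their overlap with Ctrl rests on Ctrl replicates 2 and 3, and Ctrl replicate 1 was lowest for all 3 Grainyhead genes. The partners of E-cadherin had 9 of 9 genes tested, 0 called, 0 at an unadjusted p under 0.05 and a median of 0.06. Ctnna1 (alpha-catenin) stood at 868.9 ± 46.3 CPM in Ezh2 KO and 804.8 ± 63.8 CPM in Ctrl, and Ctnnb1 (beta-catenin) at 209.5 ± 28.8 CPM in Ezh2 KO and 213 ± 14.7 CPM in Ctrl (SD, n = 3 each).

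Mesenchymal genes outside the 10 were mostly low. Of 13 further regulators, 7 were tested, 0 were called and 0 had an unadjusted p under 0.05, with a median of -0.30. Twist1, Twist2, Foxc1, Foxc2, Prrx1 and Prrx2, which mark committed mesenchyme, were under the filter, with at most 14 reads in any library. Each had a lower mean CPM in Ezh2 KO than in Ctrl. DESeq2, which kept them, called none. Its smallest unadjusted p among them was 0.00288 for Foxc1 (DESeq2 adjusted p = 0.685), with 0 reads in Ezh2 KO against 5, 8 and 4 in Ctrl. The most abundant regulators were the E proteins Tcf3, at 45.5 ± 17.8 CPM in Ezh2 KO and 77.4 ± 47.5 CPM in Ctrl, and Tcf12, at 28.0 ± 3.82 CPM in Ezh2 KO and 28.2 ± 9.81 CPM in Ctrl (SD, n = 3 each). Of 17 structure and matrix genes, 14 were tested and 0 called, with a median log2 fold change of -0.17; 3 had an unadjusted p under 0.05, all lower, where 1.25% of all tested genes did. The abundant ones, Spp1 (osteopontin) at 466.7 ± 76.9 CPM in Ezh2 KO and 484.3 ± 102.2 CPM in Ctrl and Sparc at 155.9 ± 27.7 CPM in Ezh2 KO and 132.8 ± 45.5 CPM in Ctrl (SD, n = 3 each), overlapped between groups.

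The 3 matrix list genes with an unadjusted p under 0.05, singled out after their values were seen, were all of low abundance. Cdh2, which encodes N-cadherin, the cadherin that replaces E-cadherin in mesenchyme, was at 0.776, 0.772 and 0.642 CPM in Ezh2 KO against 1.11, 3.83 and 1.73 CPM in Ctrl (log2 fold change -1.60 ± 0.50, unadjusted p = 0.0124). Fbn1, which encodes the microfibril protein fibrillin, was at 0.160, 0.386 and 0.395 CPM in Ezh2 KO against 0.845, 1.56 and 1.03 CPM in Ctrl (-1.86 ± 0.48, unadjusted p = 0.00460). Tgfbi, a secreted protein induced by TGF-beta, was at 2.33, 1.62 and 2.74 CPM in Ezh2 KO against 4.43, 4.43 and 3.47 CPM in Ctrl (-0.88 ± 0.31, unadjusted p = 0.0224). In each of the 3 the groups did not overlap, where 4.03% of all tested genes were lower without overlap. The 3 were picked by their p, so this separation is not further evidence. Each had an edgeR adjusted p of 0.976. Fibroblast markers (5 of 10 tested, none at 0) overlapped between groups in their sums, but the sum was lower in Ezh2 KO in each same-numbered pair: 7.43, 3.36 and 5.56 CPM in Ezh2 KO against 10.6, 9.05 and 6.37 CPM in Ctrl. Col1a2 of that list had an unadjusted p of 0.0328 (lower). Neuroectoderm markers (9 of 10 found, 4 tested, Olig2 at 0) did not overlap in their sums, at 2.74 to 3.61 CPM in Ezh2 KO against 4.46 to 6.46 CPM in Ctrl. Neurog1 and Lhx2 of that list had an unadjusted edgeR p of 0.00334 and 0.00301 (both lower), with an edgeR adjusted p of 0.976 each. The part of fibroblast, endoderm and neuroectoderm cells in the matrix gene values was not tested.

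Receptors and signals complete the pathway. Of 9 fibronectin receptor genes 6 were tested, 0 called and 0 at an unadjusted p under 0.05 (median 0.09), with Itgb1 at 111.2 ± 21.2 CPM in Ezh2 KO and 105.7 ± 34.7 CPM in Ctrl and its partner Itga5 at 32.7 ± 20.99 CPM in Ezh2 KO and 37.5 ± 15.5 CPM in Ctrl (SD, n = 3 each). Of 17 TGF-beta pathway genes, which relay the best known signal for the switch, 16 were tested, 0 called and 0 at an unadjusted p under 0.05 (median 0.07). Its most abundant genes were the SMAD corepressors Skil, at 46.5 ± 4.28 CPM in Ezh2 KO and 60.2 ± 23.3 CPM in Ctrl, and Ski, at 43.5 ± 11.8 CPM in Ezh2 KO and 52.3 ± 6.12 CPM in Ctrl (SD, n = 3 each).

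**Figure D5:**
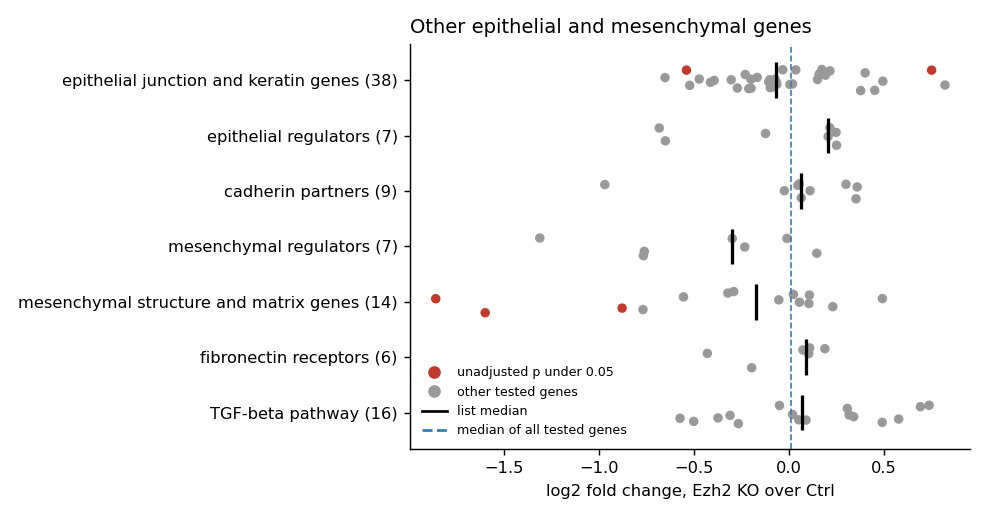
Log2 fold change, Ezh2 KO over Ctrl, of every tested gene in 7 lists (number tested in brackets), with genes of unadjusted p under 0.05 in red, list medians as black bars and the median of all tested genes as a dashed line. Fbn1 (-1.86), Cdh2 (-1.60) and Tgfbi (-0.88) are the red points of the matrix list, and list medians lie between -0.30 and 0.21.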

How the data were processed

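RNA-seq counts of 6 libraries (3 Ezh2 KO, 3 Ctrl; day 4) were analysed. The authors deposited raw read counts for each Ensembl gene ID, with no normalization. CASAVA 1.8.4, Trimmomatic 0.33, TopHat2 2.0.11, featureCounts and the builds mm9 and NCBIM37 are named per the submitters' processing notes; the sources used here give no strand setting or annotation. Symbols, exon lengths and GC content (longest transcript) came from GENCODE M21 by gene ID.

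Genes passing filterByExpr (minimum count 10; 16420 of 37991) were scaled by TMM and tested with the robust quasi-likelihood F-test of edgeR 4.0.16 (R 4.3.3) (two-sided; group alone in the model) with Benjamini-Hochberg adjustment over all tested genes, threshold 0.05. The fits were tested on simulated data. Those counts were drawn independently for each library, without the GC-linked spread or the likeness of same-numbered libraries. The simulation therefore cannot show how the fits handle either. Log2 CPM used a prior count of 2. Alternatives were DESeq2 1.42.0, limma-voom (3.58.1), DESeq2 size factors, other filters, a threshold of 0.10, a replicate block and left-out libraries; an offset for GC content (loess, span 0.5, genes of mean log2 CPM over 2) was added after seeing the data.

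Each group has replicates numbered 1 to 3. Once group means were subtracted, same-numbered libraries had correlations of 0.583, 0.368 and 0.192. Ezh2 KO replicate 2 with Ctrl replicate 3 gave 0.297, above the 0.192 of number 3. All other differently numbered pairs were negative, from -0.522 to -0.0229. Deviations from a group mean cancel out within the group, so a positive pair forces negative ones. The negative values are therefore not separate evidence of pairing. The pairing is thus weakest for number 3. It was used in the replicate block alternatives and in same-numbered comparisons, and the main test did not use it.

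The 10 genes and all lists were chosen with earlier results of these data known. Named are the 10 genes, Ezh2, the 2 most abundant tested genes of each pathway list with any that passed the test, and the 3 genes with a symbol nearest in profile to Cdh1 and to the member of widest spread. Other genes were named after their values were seen: Cldn3, Cldn6, Cdh2, Fbn1, Tgfbi, Grhl1, Grhl3, the Twist, Foxc and Prrx genes, Pdcd2, Sco2 and the marker genes. Markers of endothelium and blood, trophoblast and mesoderm, summed too, gave 120.4 to 201.4, 47.3 to 63.3 and 105.2 to 392.2 CPM in Ezh2 KO, against 121.9 to 197, 43.3 to 58.6 and 169.3 to 277.8 CPM in Ctrl. Pecam1 made up most of the first sum, which was 5.87 to 8.33 CPM in Ezh2 KO and 3.36 to 7.29 CPM in Ctrl without it. Tbx3 made up most of the mesoderm sum, which was 16.4 to 18.1 CPM in Ezh2 KO and 14.4 to 18.4 CPM in Ctrl without it.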

Additional observations from a re-analysis of the deposited data

How the results depend on the processing

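The count of genes called was 0 in 16 of 18 settings, the exceptions being DESeq2 with 5 and DESeq2 with the replicate block with 50, none of them among the switch genes or pathway lists. Of the marker lists, Krtdap was called by DESeq2 without and with the block (adjusted p of 0.0127 and 0.00019) and Neurog1 with the block (0.0463, against 0.104 without). In edgeR, the replicate block left the count at 0, the smallest adjusted p at 0.158 and 1495 genes at an unadjusted p under 0.05, against 459 without it, and it changed no other call; with the block and a GC offset together there were 1623. Over 128 alternative estimates of the 8 tested genes (16 each), 0 passed the threshold, and Esrp1, Grhl2, Snai2, Vim and Fn1 kept their sign in all. Leaving out 1 library gave -0.579 to 0.092 for Cdh1 and -0.171 to 0.063 for Epcam. Without Ezh2 KO replicate 2 and Ctrl replicate 1, the extremes of principal component 1, Cdh1 was at 0.245 and Snai1 at 0.137, with fewer samples in each group. Epcam was at 0.048 with the GC offset and 0.016 with the block added to it. The cause of these turns was not tested. CPM on plain library totals moved no level by more than 1 SD. The depth limits Zeb2, with 2 to 15 reads a library, and Snai1, with 6 reads in Ezh2 KO replicate 2.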
